A study of Mus musculus with 9 samples.

Results

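The genes described here are 39 listed genes of the dividing cell, 19 that are active around the start of S phase and during DNA replication and 20 that are active in G2 and mitosis. They were matched by symbol in a table of 55487 genes, and all 39 were found and were among the 15237 genes with enough counts to be tested. The cells were B16F10, an established mouse melanoma line that grows as an adherent culture. They were kept for 6 h in media alone, in media with interferon gamma (IFNγ, 50 ng/mL), or in media with IFNγ (50 ng/mL) and FK866 (50 nM), an inhibitor of NAMPT, the enzyme that makes the NAD precursor nicotinamide mononucleotide from nicotinamide. The labels give no genotype change in any group, the cells come from 1 line, and no group received FK866 alone. The protocol speaks of mouse or human IFNγ and names a mouse product. Each group has 3 libraries, titled Control 3, Control 4 and Control 5, and what these numbers stand for is not stated. Nothing in the labels says that the libraries of a group are separate cultures, and the spread that p-values measure here may therefore be technical. The question is whether genes of proliferation moved by 6 h.

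Entry into S phase is set by cyclin D and cyclin E kinases, which inactivate the retinoblastoma family and release E2F transcription factors. E2F then drives the genes that load the MCM helicase on origins, copy DNA and make deoxynucleotides. Genes of G2 and mitosis come later, mostly under the MuvB complex with B-MYB and FOXM1, through an element called CHR, with the factor NF-Y at CCAAT boxes. In quiet cells both sets are held down by the DREAM complex, and IFNγ is known to slow the division of many cell types.

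Promoters of 5 members are shown because the treatment comparisons turn on Cdc6 and Top2a, and the differences between numbers on Mcm5, Plk1 and Bub1b. Each is the RefSeq window of GRCm38.p6 from 250 bases before to 50 bases after the annotated start, written 5′ to 3′ in the direction of the gene. Capitals mark 3 motifs searched on both strands, with overlaps allowed: E2F (TTTGGCGC, TTTCCCGC, TTTGCCGC or TTTCGCGC), CHR (TTTGAA) and the CCAAT box (CCAAT). Mcm5 lies at chr8:75109259-75109558 on the plus strand, Cdc6 at chr11:98907901-98908200 on the plus strand, Top2a at chr11:99024140-99024439 on the minus strand, Plk1 at chr7:122159185-122159484 on the plus strand and Bub1b at chr2:118597961-118598260 on the plus strand.
Mcm5: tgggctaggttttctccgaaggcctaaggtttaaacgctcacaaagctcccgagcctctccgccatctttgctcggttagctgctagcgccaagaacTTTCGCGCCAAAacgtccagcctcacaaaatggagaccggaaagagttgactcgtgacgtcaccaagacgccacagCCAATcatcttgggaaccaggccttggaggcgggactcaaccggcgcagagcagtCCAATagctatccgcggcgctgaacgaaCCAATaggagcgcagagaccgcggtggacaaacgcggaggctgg
Cdc6: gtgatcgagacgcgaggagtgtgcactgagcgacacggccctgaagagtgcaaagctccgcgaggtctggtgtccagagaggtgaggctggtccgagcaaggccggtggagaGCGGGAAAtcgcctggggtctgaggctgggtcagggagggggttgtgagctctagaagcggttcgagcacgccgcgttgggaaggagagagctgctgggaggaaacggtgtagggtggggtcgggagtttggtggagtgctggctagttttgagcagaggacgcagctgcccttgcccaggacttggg
Top2a: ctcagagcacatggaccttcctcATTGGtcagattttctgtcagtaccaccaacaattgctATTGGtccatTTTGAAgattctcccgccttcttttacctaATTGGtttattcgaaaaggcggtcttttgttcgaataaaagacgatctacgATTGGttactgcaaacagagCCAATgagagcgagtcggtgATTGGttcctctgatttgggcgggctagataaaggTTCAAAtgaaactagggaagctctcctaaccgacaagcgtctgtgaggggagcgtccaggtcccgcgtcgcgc
Plk1: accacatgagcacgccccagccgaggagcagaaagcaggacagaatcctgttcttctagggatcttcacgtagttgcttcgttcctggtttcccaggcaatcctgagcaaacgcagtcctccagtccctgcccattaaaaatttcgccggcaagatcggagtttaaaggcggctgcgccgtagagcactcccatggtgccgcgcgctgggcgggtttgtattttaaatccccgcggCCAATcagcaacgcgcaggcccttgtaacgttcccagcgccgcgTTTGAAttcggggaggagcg
Bub1b: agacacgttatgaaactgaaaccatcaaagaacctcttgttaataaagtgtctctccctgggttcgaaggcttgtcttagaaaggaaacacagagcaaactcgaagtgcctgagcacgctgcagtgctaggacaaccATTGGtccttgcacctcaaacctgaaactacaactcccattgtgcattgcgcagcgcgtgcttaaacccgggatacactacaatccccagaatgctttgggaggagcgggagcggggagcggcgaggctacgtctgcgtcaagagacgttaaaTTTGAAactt

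The Mcm5 window held overlapping E2F matches on opposite strands, 153 and 149 bases upstream of the start, and 3 CCAAT boxes. The Cdc6 window held 1 E2F match, 138 bases upstream, and neither of the other motifs. In Top2a there were 2 CHR matches, 179 and 23 bases upstream, and 6 CCAAT boxes. Plk1 and Bub1b each had 1 CHR match, 30 and 40 bases after the start, and 1 CCAAT box. A window was given for 33 of the 39 members, and where a gene had several (2 members) the first listed was counted. An E2F match was present in 6 of 16 S phase members (37.5%) and 1 of 17 G2/M members (5.88%), against 2.32% of the 27025 genes with a window. A CHR match was present in 2 of 16 S phase members (12.5%) and 12 of 17 G2/M members (70.6%), against 18.1% of all. CCAAT boxes were in 11 of 16 (68.8%) and 15 of 17 (88.2%), against 37.9% of all. CHR and CCAAT occurred together in 12 of 17 G2/M members (70.6%), 2 of 16 S phase members (12.5%) and 7.12% of all genes. With every window counted, Uhrf1 was added through its second window, which gave an E2F match in 7 of 16 S phase members (43.8%) and 2.60% of all genes. The other member counts were as before, beside 20.2% (CHR), 41.1% (CCAAT) and 7.97% (both) of all genes. These are matches of letters and not tested binding sites.

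Library totals ran from 15317003 to 18466972 counts, and levels are given as CPM, read counts scaled to the library total, after TMM scaling. Together the 39 genes took up 0.639% to 0.812% of the counts of each library. Per kilobase of exon the most abundant was Rrm2, a subunit of ribonucleotide reductase, at a mean of 195 CPM per kb over the 9 libraries. It was followed by the sliding clamp Pcna (117 CPM per kb), the methylation maintenance factor Uhrf1 (104 CPM per kb), the DNA decatenase Top2a (95.7 CPM per kb) and the proliferation marker Mki67 (71.6 CPM per kb). The lowest was the helicase subunit Gins2 at 2.40 CPM per kb, and 67.3% of its exon bases overlap Gse1 on the opposite strand. Exons of Ube2c, Ccne2 and Ccna2 also overlap opposite-strand genes over 22.8%, 17.4% and 12.5% of their length. The strand setting of the counting is not given, so reads of these neighbours cannot be told apart. The melanocyte genes Pmel and Mlana were high in all libraries, with 3177 to 4287 CPM and 820.2 to 989.8 CPM. Of the 7 listed melanocyte genes 1, Mitf, was lower with IFNγ against media when libraries were not paired by number (log2 fold change -1.27, edgeR adjusted p = 7.73e-04). When they were paired, 3 of the 7 were lower with IFNγ (6.14% of all genes) and 4 with both agents (7.61% of all genes). All 7 log2 fold changes were negative in both comparisons. Tyr, also of that list, had 3776, 2558 and 7687 counts in the media libraries numbered 3, 4 and 5. Irf1, an early IFNγ target, had 20.6, 17.3 and 14.0 CPM in media, 762, 826 and 773 under IFNγ and 719, 796 and 725 under IFNγ + FK866 in the libraries numbered 3, 4 and 5. Each library thus matches its label on this gene for the presence of IFNγ. The values with and without FK866 overlapped, so Irf1 does not check the FK866 label.

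At 6 h few of the 39 genes differed between treatments: Top2a was higher and Cdc6 lower than in media, and both were called only when libraries were paired by number. Without pairing, with IFNγ against media, 0 of 39 were called at an adjusted p below 0.05 (edgeR quasi-likelihood test with Benjamini-Hochberg adjustment over 15237 genes), where 3.30% of all genes tested were called. Unadjusted p was below 0.05 for 0 of them, against 10.2% of all genes, and DESeq2 also called 0. The median log2 fold change was -0.11 for the S phase genes and -0.03 for the G2/M genes, beside -0.01 for all genes tested. With IFNγ + FK866 against media the count was again 0 of 39, against 3.36% of all genes, with 1 member (Cdc6) at an unadjusted p below 0.05 (10.6% of all genes) and 0 called by DESeq2. The medians were -0.11 for S phase, 0.00 for G2/M and -0.02 for all genes. These comparisons share the 3 media libraries.

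Libraries with the same number deviated from their group means together, and a fit with the number as a replicate block changed these counts. In that fit IFNγ against media gave 2 called members, where 14.3% of all genes were called: Top2a was higher and Cdc6 was lower. IFNγ + FK866 against media gave 3, where 16.1% of all genes were called: Top2a higher, Cdc6 and E2f1 lower. Over all 39 members together, the share called stayed below the background of either direction in both. Of the 19 S phase genes, 1 was lower with IFNγ (6.14% of all genes) and 2 with both agents (7.61% of all genes). Their log2 fold changes were negative for 14 and positive for 5 with IFNγ (median -0.09, all genes -0.01). With both agents they were negative for 17 and positive for 2 (median -0.11, all genes -0.02). In each comparison 9 of the 19 were below media in 3 of 3 pairs. With IFNγ, unadjusted p in this fit was below 0.05 for 5 of 19 S phase and 2 of 20 G2/M genes (23.2% of all genes). With both agents it was below 0.05 for 8 of 19 S phase and 1 of 20 G2/M genes (26.1% of all genes). With the block, the 95% interval of the log2 fold change had a median half-width of 0.137 (0.297 without it). The intervals of all 39 members together lay between -0.36 and 0.49 for IFNγ against media and between -0.51 and 0.49 for IFNγ + FK866 against media.

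**Figure D1:**
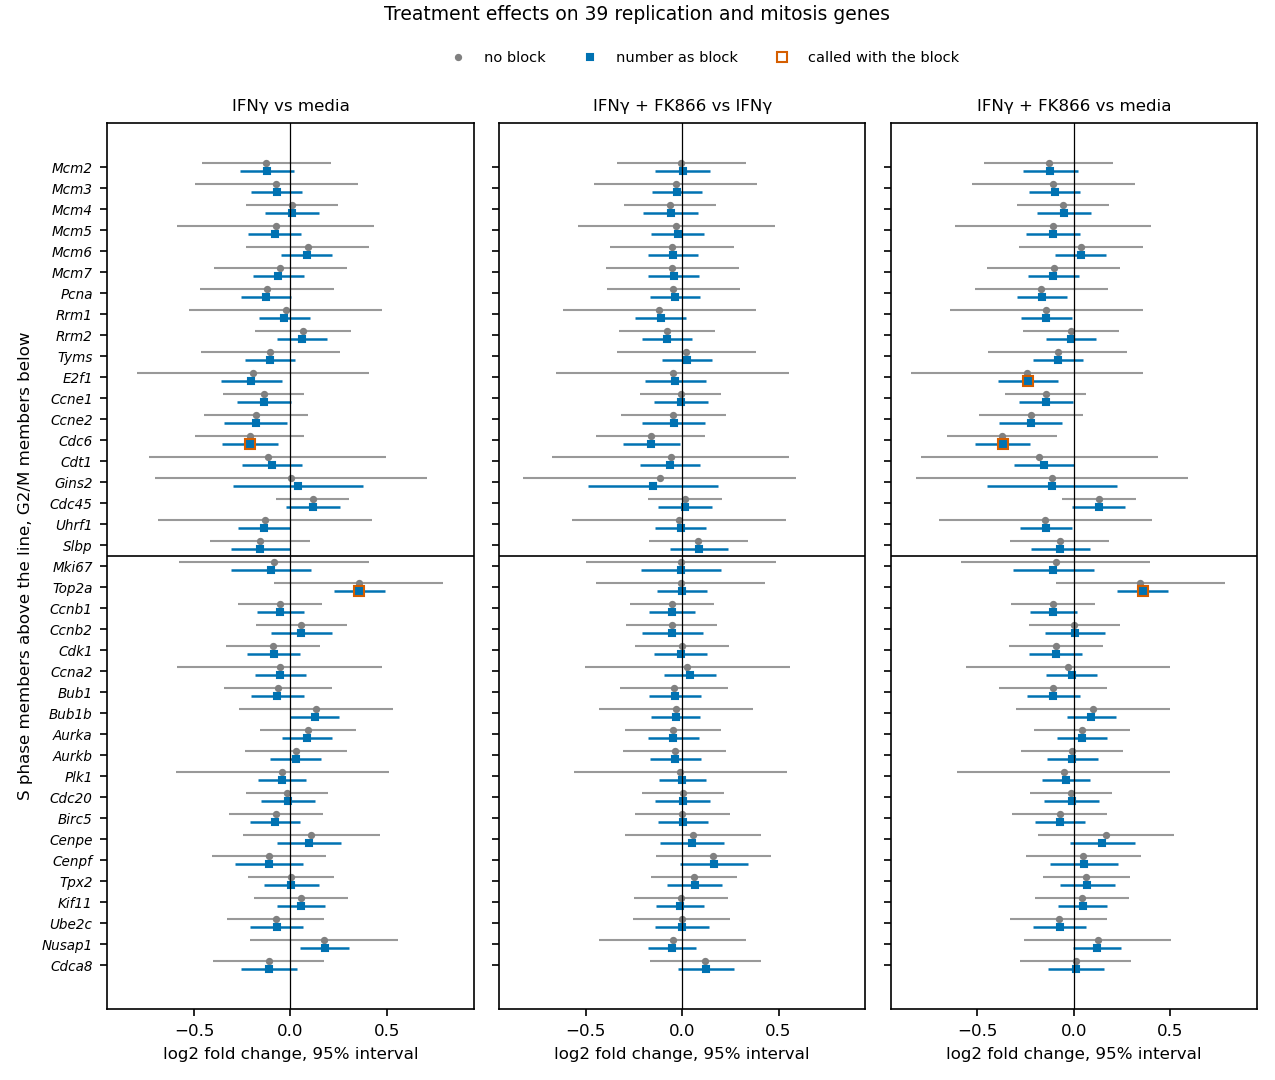
Log2 fold change of each of the 39 genes with its 95% interval (x axis) in the 3 treatment comparisons, from the fit without a block (grey circles) and with the number as a block (blue squares). Orange outlines mark calls with the block, which are Cdc6 and Top2a for IFNγ against media and Cdc6, E2f1 and Top2a for IFNγ + FK866 against media, and most other intervals cross 0.

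Cdc6 loads the MCM helicase together with Cdt1 at origins of replication. Its levels in the libraries numbered 3, 4 and 5 were 54.5, 69.7 and 62.8 CPM in media, 46.8, 56.0 and 58.9 under IFNγ and 44.8, 49.9 and 49.7 under IFNγ + FK866. Every library with both agents lay below every media library, while the IFNγ and media ranges overlapped. With both agents, 21.1% of the 19 S phase members and 0 of 20 G2/M members did not overlap media, against 14.3% of all genes. Group means of Cdc6 were 62.3 ± 7.64, 53.9 ± 6.30 and 48.2 ± 2.87 CPM (SD, n = 3 each). Within the pairs of equal number, the log2 difference from media was -0.22, -0.32 and -0.09 with IFNγ and -0.28, -0.48 and -0.34 with IFNγ + FK866, lower in 3 of 3 pairs each. The log2 fold change against media with the block was -0.21 with IFNγ (SE 0.07, edgeR adjusted p = 0.0460; 0.788 without the block). With both agents it was -0.37 (SE 0.07, edgeR adjusted p = 5.12e-04; 0.230 without the block). With the block, the second call held in all 9 fits that left out 1 library, and its adjusted p was at most 0.0140. The call for IFNγ alone held in 3 of 9. It was lost without media 4, IFNγ 3, IFNγ 4, IFNγ 5, IFNγ + FK866 4 or IFNγ + FK866 5 (edgeR adjusted p = 0.298, 0.274, 0.254, 0.0514, 0.0664 and 0.0575).

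The partner Cdt1 had 69.2, 69.1 and 124 CPM in media, 64.9, 73.7 and 103 under IFNγ and 69.5, 62.6 and 99.7 under IFNγ + FK866. Number 5 was the highest in each group, and the log2 fold change was -0.09 with IFNγ and -0.15 with both agents (edgeR adjusted p with the block = 0.529 and 0.191). Of the helicase genes that they load, Mcm2 to Mcm7, 0 of 6 were called with or without the block. Mcm2, for example, had 477 ± 75.4 CPM in media, 438 ± 61.9 with IFNγ and 436 ± 42.3 with both agents (SD, n = 3). Mcm6 had 306 ± 33.2, 326 ± 49.3 and 314 ± 38.4 CPM. Their fitted log2 fold changes with IFNγ had opposite signs, -0.13 and 0.09. Without the block both were smaller than their standard errors of 0.15 and 0.14, which include the differences between numbers. With the block the median standard error of the S phase genes was 0.07. Within pairs, Mcm2 was lower with IFNγ in 3 of 3 (-0.06, -0.20 and -0.11) and Mcm6 higher in 3 of 3 (0.08, 0.02 and 0.15). With both agents the pairs of Mcm2 and of Mcm6 were mixed. Cdc45, which activates the loaded helicase, had 47.1, 46.7 and 46.0 CPM in media, 48.2, 52.8 and 50.3 under IFNγ and 50.7, 50.5 and 51.7 under IFNγ + FK866. In this narrow range each IFNγ library was above each media library. With IFNγ, 1 of 19 S phase and 0 of 20 G2/M members did not overlap media, against 13.8% of all genes. The log2 fold change of Cdc45 was 0.11 (SE 0.09) and 0.13 (SE 0.09), and it was not called (edgeR adjusted p = 0.946 and 0.794).

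E2f1 is both a driver and a target of the G1/S transition. It had 55.7, 52.3 and 84.2 CPM in media, 41.3, 50.3 and 76.3 under IFNγ and 47.7, 45.0 and 69.9 under IFNγ + FK866. The groups overlapped, and number 5 was well above the others in all of them. Within pairs the log2 difference of E2f1 from media was -0.43, -0.06 and -0.14 with IFNγ and -0.22, -0.22 and -0.27 with both agents. The call with the block for both agents (-0.24, SE 0.08, edgeR adjusted p = 0.0356; 0.983 without the block) held in 4 of 9 fits that left out a library. It was lost without media 3, 4 or 5 and without IFNγ + FK866 4 or 5, with adjusted p-values up to 0.199. The E-type cyclins, which bind CDK2 and help to start replication, were not called. Ccne1 had 51.5, 59.1 and 54.1 CPM in media, 48.0, 52.9 and 48.7 under IFNγ and 49.8, 49.8 and 49.3 under IFNγ + FK866, and Ccne2 had 51.3, 62.1 and 54.9 CPM in media, 46.2, 46.2 and 56.3 under IFNγ and 44.2, 49.8 and 50.2 under IFNγ + FK866. Ccne1 was below media in 3 of 3 pairs for both treatments (-0.10, -0.16 and -0.15, and -0.05, -0.24 and -0.13), and Ccne2 in 3 of 3 pairs with both agents (-0.21, -0.32 and -0.13) and in 2 of 3 with IFNγ. Their adjusted p-values with the block were 0.221 and 0.155 for IFNγ, and 0.173 and 0.0543 for both agents (edgeR).

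The members that copy DNA or supply its building blocks were not called in any treatment comparison. Pcna had 301 ± 44.3 CPM in media, 277 ± 48.2 with IFNγ and 268 ± 28.0 with both agents (SD, n = 3). The reductase subunits went as 456 ± 94.8, 448 ± 109 and 413 ± 86.8 CPM for Rrm1, and 535 ± 29.6, 559 ± 51.9 and 529 ± 47.1 CPM for Rrm2. Tyms, the thymidylate synthase, had 86.1 ± 12.4, 80.1 ± 13.7 and 81.3 ± 11.8 CPM. For these 4 genes each treated mean differed from the media mean by less than the SD of the media group. That SD includes the differences between numbers, which held 74.4% (Rrm2) to 92.3% (Rrm1) of the variance of log2 CPM. Pcna was below media in 3 of 3 pairs with IFNγ (-0.10, -0.19 and -0.09) and with both agents (-0.08, -0.17 and -0.24). Tyms was below in 3 of 3 with IFNγ and Rrm1 in 3 of 3 with both agents. The remaining pairings of Rrm1, Rrm2 and Tyms were mixed. Uhrf1 (log2 fold change -0.13 with IFNγ, SE 0.25), the histone mRNA binder Slbp (-0.16, SE 0.12) and Gins2 (0.00, SE 0.32) were not called either. These standard errors are from the fit without the block. Within pairs, Uhrf1 and Slbp were below media in 3 of 3 with IFNγ, and Uhrf1 also with both agents. The pairs of Gins2 were mixed.

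Among the G2/M genes Top2a stood apart. It codes for topoisomerase II alpha, which untangles sister DNA before mitosis, and had 556, 817 and 815 CPM in media, 733, 1014 and 1048 under IFNγ and 768, 1057 and 955 under IFNγ + FK866. In each number, both treated libraries were above the media library, although the groups overlapped because number 3 was low throughout. Within pairs the log2 difference from media was 0.40, 0.31 and 0.36 with IFNγ and 0.46, 0.37 and 0.23 with both agents, higher in 3 of 3 pairs each. With the block the log2 fold change was 0.36 (SE 0.06, edgeR adjusted p = 2.82e-04) and 0.36 (SE 0.06, edgeR adjusted p = 2.81e-04). Without the block the adjusted p-values were 0.718 and 0.688 (edgeR). Both calls with the block held in all 9 fits that left out 1 library, with log2 fold changes from 0.31 to 0.42. Mki67, often read beside Top2a as a marker of cycling cells, had 594, 809 and 851 CPM in media, 566, 858 and 698 under IFNγ and 637, 913 and 561 under IFNγ + FK866. It was above media in number 4 and below it in number 5 under both treatments, and its log2 fold change with IFNγ was -0.10 (SE 0.10 with the block).

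**Figure D2:**
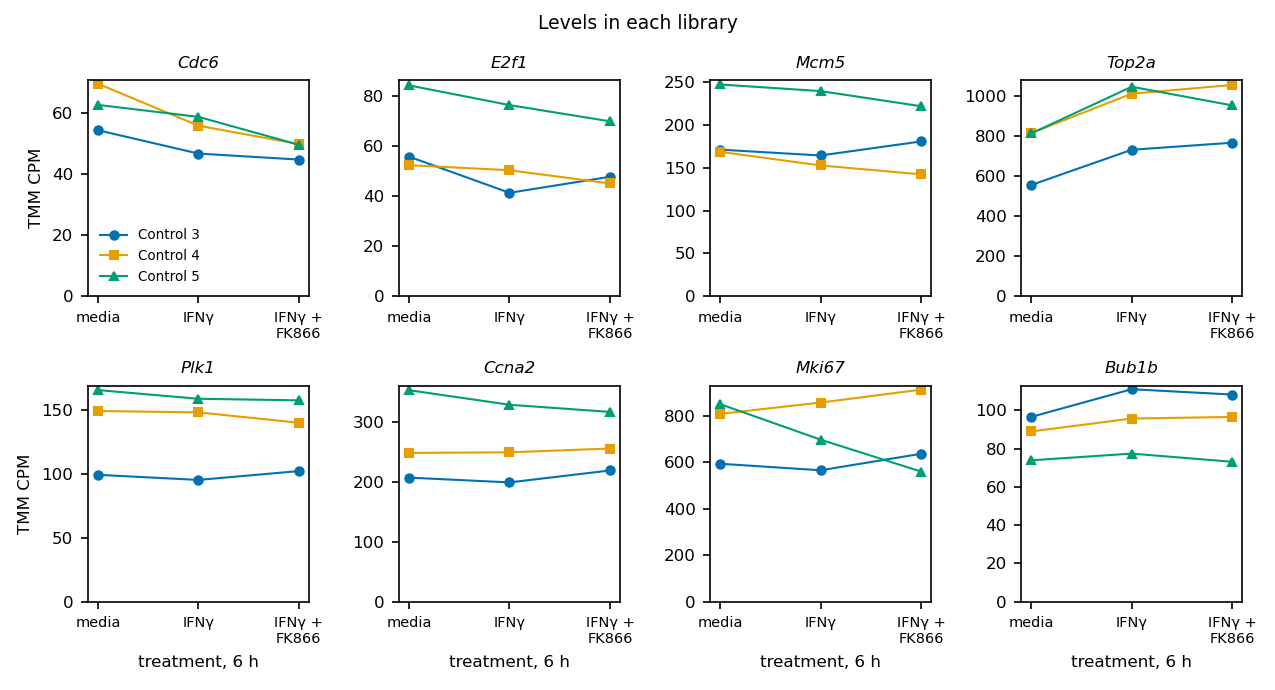
Levels in CPM (y axis, from 0) of 8 members in the 9 libraries, by treatment (x axis), with 1 line per Control number. Top2a rises from media to both treated groups in each number and Cdc6 falls, while Plk1 and Ccna2 keep the numbers apart, Mcm5 is highest and Bub1b lowest in number 5, and Mki67 goes in different directions.

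The cyclins and the kinase of mitotic entry were not called in any treatment comparison, and their SDs include the differences between numbers. Cdk1 had 146 ± 13.2, 137 ± 3.54 and 137 ± 14.5 CPM over the media, IFNγ and IFNγ + FK866 libraries (SD, n = 3). Ccnb1, its B-type cyclin, had 148 ± 12.6, 143 ± 7.72 and 138 ± 5.74 CPM, and Ccnb2 64.9 ± 5.61, 67.5 ± 6.35 and 65.0 ± 1.85 CPM. Ccna2, the A-type cyclin of S phase and G2, had 207, 248 and 353 CPM in media, 199, 249 and 329 under IFNγ and 219, 256 and 317 under IFNγ + FK866. Its spread within a group was far larger than the differences between group means. Within pairs, Ccnb1 was below media in 3 of 3 with IFNγ (-0.03, -0.02 and -0.10) and with both agents (-0.07, -0.07 and -0.18). The pairs of Cdk1, Ccnb2 and Ccna2 were mixed.

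Of the mitotic kinases, Plk1 had 99.1, 149 and 165 CPM in media, 95.1, 148 and 158 under IFNγ and 102, 139.7 and 157 under IFNγ + FK866. Number 3 was low in all 3 groups, and the log2 fold change with the block was -0.04 for IFNγ (95% interval -0.17 to 0.08) and -0.04 for both agents (-0.16 to 0.08). Aurka, of the centrosomes, and Aurkb, of the chromosomal passenger complex, had 0.09 and 0.03 with IFNγ (SE 0.06 and 0.06). The other passenger subunits Birc5 and Cdca8 had -0.08 and -0.11 (SE 0.06 and 0.07). For the spindle checkpoint kinase Bub1 and its relative Bub1b the values were -0.07 and 0.13 (SE 0.07 and 0.06), and for Cdc20, an activator of the anaphase-promoting complex, and Ube2c, a ubiquitin-conjugating enzyme that works with it, -0.01 and -0.07 (SE 0.07 and 0.07). None of these genes was called in any treatment comparison. Within pairs, Plk1, Bub1 and Cdca8 were below media and Bub1b above it in 3 of 3 with IFNγ. With both agents Birc5 was below media in 3 of 3. The remaining pairings of these genes were mixed.

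Genes of the spindle and kinetochore had log2 fold changes with IFNγ of 0.06 (Kif11, the bipolar spindle motor), 0.01 (Tpx2, which activates Aurora A), 0.10 (Cenpe, a kinetochore motor), -0.11 (Cenpf) and 0.18 (Nusap1, a microtubule binder). Nusap1 was above media in 3 of 3 pairs (0.15, 0.16 and 0.22) and missed the threshold with the block (edgeR adjusted p = 0.0543), and the others had adjusted p-values from 0.503 to 0.979. With both agents the values of these genes ran from 0.05 for Kif11 to 0.15 for Cenpe, with standard errors of 0.06 and 0.08.

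Adding FK866 to IFNγ gave no called member. With or without the block 0 of 39 genes were called, where 0% of all genes were called without it and 0.0197% with it. Unadjusted p was below 0.05 for 0 members without the block and for 1 with it, and DESeq2 called 0. The median log2 fold change was -0.05 for S phase, -0.01 for G2/M and -0.01 for all genes. The member with the smallest p was Cdc6, which was lower with FK866 in 3 of 3 pairs (-0.06, -0.16 and -0.24), at a log2 fold change of -0.16 with the block (SE 0.07, edgeR adjusted p = 0.987). Intervals with the block lay between -0.49 and 0.34 over all members, and the wide end was set by Gins2, the least abundant member.

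Among wider lists of cell cycle genes, calls were also few. Of 40 other origin and fork genes 1 was higher with IFNγ against media, the polymerase alpha subunit Pola2 (44.3, 48.0 and 48.9 CPM in media, 62.2, 64.7 and 66.4 under IFNγ and 62.2, 63.1 and 56.1 under IFNγ + FK866), at 0.45 (SE 0.09, edgeR adjusted p = 0.0275). Of 10 G1 cyclins and their kinases 1 was lower, Cdk2 (417, 429.6 and 366 CPM in media, 285, 231 and 229.8 under IFNγ and 291, 219.6 and 210.3 under IFNγ + FK866), the partner of cyclins E and A. Every treated Cdk2 value lay below every media value, with log2 fold changes of -0.70 (SE 0.15, edgeR adjusted p = 0.0337) for IFNγ and -0.75 (SE 0.15, 0.0226) for both agents. Of 12 tested CDK inhibitors and antiproliferative genes 1 was higher with IFNγ, the stress gene Gadd45b, at 1.05 (SE 0.23, edgeR adjusted p = 0.0408). The background for these counts was 2.80% higher and 0.499% lower. In the 20 other nucleotide synthesis genes, the 53 other mitotic genes and the 19 cell cycle transcription factors 0 were called without the block for IFNγ against media, with 1, 0 and 2 at an unadjusted p below 0.05. The smallest p in each was that of Tk1, Fbxo5 and Myc (log2 fold change -0.31, -0.17 and -0.66). With both agents against media, where 2.76% of all genes were higher and 0.597% lower, the only call in these 6 lists without the block was Cdk2.

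With the block, where 8.12% of all genes were higher and 6.14% lower with IFNγ, more of these genes were called. The inhibitor and antiproliferative list had 5 of 12 higher and 1 lower. Cdkn1a, which codes for the CDK inhibitor p21, had 533, 291 and 191 CPM in media, 661, 376 and 233 under IFNγ and 618, 361 and 212 under IFNγ + FK866, above media in each number, at 0.32 (SE 0.06, edgeR adjusted p = 5.99e-04). Btg1, Btg2, Gadd45b and Gadd45g were at 0.39, 1.79, 1.07 and 2.05, and Cdkn2d at -0.41. Ccnd1, the D-type cyclin, had 258, 127 and 236 CPM in media, 199, 89.4 and 176 under IFNγ and 199, 84.2 and 155 under IFNγ + FK866 and a log2 fold change of -0.43 (SE 0.06, edgeR adjusted p = 3.08e-05). Myc had 78.6, 132 and 141 CPM in media, 56.3, 71.8 and 94.1 under IFNγ and 63.9, 66.8 and 84.1 under IFNγ + FK866, below media in each number, at -0.66 (SE 0.09, edgeR adjusted p = 1.34e-05). Of the transcription factors 2 of 19 were higher (Rbl1 and Mybl2) and 4 lower (Myc, E2f3, E2f8 and Rbl2). Of the nucleotide genes 0 of 20 were higher and 2 lower, Tk1 (-0.31) and Ppat (-0.25), and of the 53 other mitotic genes 0 were higher and 1 lower, Cdc25b (-0.27). Of the origin and fork genes 1 of 40 was higher (Pola2), and of the G1 genes 2 of 10 were lower (Cdk2 and Ccnd1).

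With both agents against media and the block, 8.53% of all genes were higher and 7.61% lower. In the inhibitor and antiproliferative list 5 of 12 were higher and 0 lower: Gadd45g (1.80), Btg2 (1.34), Gadd45b (0.90), Btg1 (0.41) and Cdkn1a (0.22). Of the G1 genes 0 of 10 were higher and 2 lower, Cdk2 (-0.76) and Ccnd1 (-0.52). Of the transcription factors 2 of 19 were higher (Rbl1 and Mybl2) and 3 lower (Myc, E2f3 and Rbl2). Of the nucleotide genes 0 of 20 were higher, and Tk1 (-0.47) and Ppat (-0.27) were among the lower. Of the origin and fork genes 1 of 40 was higher, Pola2 (0.36), and 2 were lower, the origin recognition subunit Orc1 (-0.34) and the chromatin assembly subunit Chaf1b (-0.25). Of the 53 other mitotic genes 0 were higher and 2 lower, Cdc25b (-0.26) and Cks1b (-0.27). The comparisons with IFNγ and with both agents share the media libraries.

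More members were called between the Control numbers than between treatments, and most S phase genes were higher in number 5 than in numbers 3 and 4. The numbers were compared with treatment as a term, so that each number is represented by 3 libraries that had received different treatments. These 3 libraries deviated together and are not independent replicates of their number. The p-values of the number contrasts therefore measure the spread of libraries within a number. They do not measure the spread between units such as the numbers. Between number 4 and number 3, 10 members were higher and 1 lower, where 31.0% of all genes were called (15.8% higher, 15.2% lower). Between number 5 and number 3, 23 were higher and 3 lower, where 42.0% of all genes were called (20.8% and 21.1%). Between number 5 and number 4, 17 were higher and 4 lower, where 31.1% of all genes were called (15.2% and 15.9%). These contrasts share libraries and are not independent of each other. The number accounted for a median of 80.6% of the variance of log2 CPM over the 9 libraries in S phase genes and 67.6% in G2/M genes, beside 54.4% over all genes tested. Treatment accounted for 8.06%, 10.5% and 15.3%. In 4 members treatment had the larger share: Cdc45 (75.0% against 5.89% for number), Cdc6 (59.3% against 34.5%), Ccne1 (55.6% against 29.4%) and Ccne2 (42.2% against 30.0%). Number had the larger share in 15 of 19 S phase genes and 20 of 20 G2/M genes, against 71.5% of all genes. Cdc45 varied little, with an SD of 0.07 in log2 CPM over the 9 libraries.

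**Figure D3:**
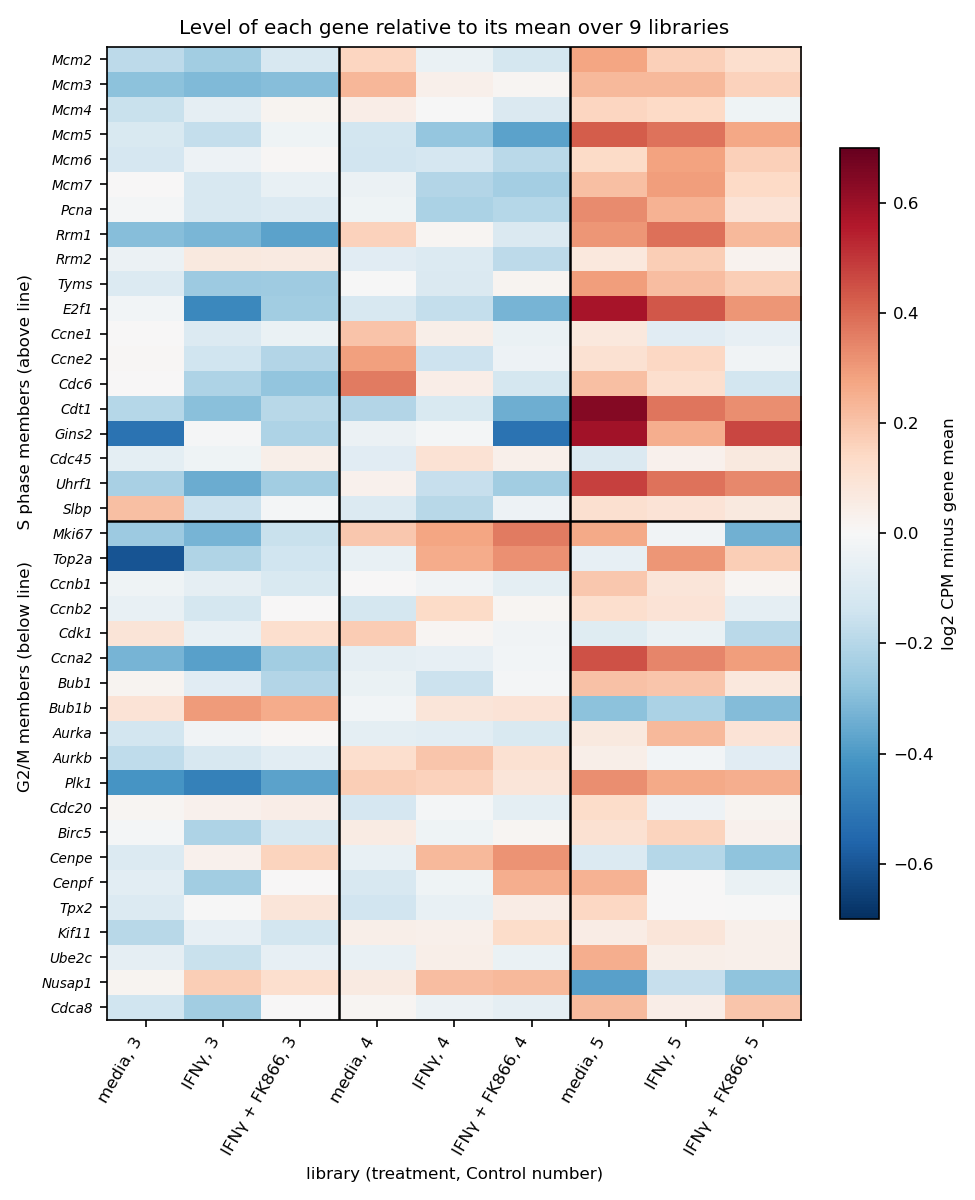
Level of each of the 39 genes in each library as log2 CPM minus the mean of that gene over the 9 libraries, with libraries ordered by Control number and, within it, by treatment. Most S phase genes are highest in the 3 libraries of number 5, while Bub1b and Nusap1 are lowest there, and Cenpe is lowest there under the 2 treatments but nearly equal to number 3 in media.

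The S phase genes that were called were all higher in number 5 than in the numbers compared with it. In number 5 against number 3, 13 of 19 were higher and 0 lower, with a median log2 fold change of 0.30 (all genes 0.00). In number 5 against number 4 it was again 13 of 19 and 0, with a median of 0.26 (all genes -0.01). In number 4 against number 3 it was 4 and 0, with a median of 0.05 (all genes 0.00). Under every treatment, 5 of 19 (26.3%) were higher and 6 (31.6%) lower in number 4, near the 28.4% and 27.8% of all genes. Largest in number 5 against number 3 were Cdt1 (0.68, SE 0.07, edgeR adjusted p = 4.39e-07), Gins2 (0.68, SE 0.16, 0.00200), E2f1 (0.67, SE 0.08, 6.00e-07) and Uhrf1 (0.67, SE 0.06, 7.25e-08). Uhrf1 had 372, 443 and 606 CPM in media, 342, 388 and 567 under IFNγ and 368, 367 and 549 under IFNγ + FK866, so that the number 5 library was the highest under every treatment and the ranges of number 5 and the other numbers did not overlap.

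Within the helicase, subunits differed in how the numbers were ordered. Mcm5, whose promoter is shown above, had 171, 169 and 247 CPM in media, 164, 153 and 239.8 under IFNγ and 181, 142 and 222 under IFNγ + FK866, with number 5 highest and number 4 lowest under each treatment. Mcm6, Mcm7 and Pcna had the same order. Mcm3 had 187, 267 and 267 CPM in media, 184, 234 and 267 under IFNγ and 185, 230.1 and 255 under IFNγ + FK866, with number 3 lowest under each treatment. Its log2 fold change was 0.39 in number 4 against number 3 (SE 0.06, edgeR adjusted p = 6.09e-05), where Mcm5 had -0.16 (SE 0.07, 0.0791). Mcm4 was not called between any numbers (0.05, 0.15 and 0.10). For the reductase, Rrm1 was lowest in number 3 and highest in number 5 under each treatment (350.4, 483 and 534 CPM in media, 346, 435 and 563 under IFNγ and 332, 402 and 505 under IFNγ + FK866). Its partner Rrm2 had 0.06 in number 5 against number 3 (SE 0.06), where Rrm1 had 0.64 (SE 0.06).

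The G2/M genes were mixed. In number 5 against number 3, 10 of 20 were higher and 3 lower (median 0.18), in number 4 against number 3, 6 and 1 (median 0.08), and in number 5 against number 4, 4 and 4 (median 0.06). Of the 20, Plk1 had the largest difference, 0.56 in number 4 and 0.70 in number 5 against number 3 (SE 0.06 each, edgeR adjusted p = 5.03e-07 and 1.57e-08). Its mean level was 98.7 ± 3.46, 145 ± 5.01 and 160.3 ± 4.32 CPM in numbers 3, 4 and 5 (SD, n = 3 libraries of different treatment). Ccna2 followed with 0.68 in number 5 against number 3 (SE 0.06), while Cdk1, the kinase it can bind, had -0.16 (SE 0.07) and was not called. Top2a was low in number 3 (686 ± 113 CPM) and alike in numbers 4 and 5 (963 ± 128 and 939 ± 118 CPM). Mki67 was higher in number 4 than in number 3 under each treatment, at 0.52 (edgeR adjusted p = 3.73e-04). The log2 difference of number 5 from number 4 was 0.07 in media, -0.30 under IFNγ and -0.70 with both agents, and the value fitted over them was -0.30 (edgeR adjusted p = 0.0270). That call was lost in 6 of 13 alternative settings: DESeq2 (adjusted p = 0.221), edgeR with no treatment term (0.167), and edgeR without IFNγ 4, IFNγ 5, IFNγ + FK866 4 or IFNγ + FK866 5 (adjusted p = 0.107, 0.0848, 0.222 and 0.362). Over the 13 settings the Mki67 value ran from -0.47 (without media 5) to -0.11 (without IFNγ + FK866 5).

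Bub1b, Nusap1 and Cenpe went the other way. Bub1b, of the spindle checkpoint, had 96.6, 89.0 and 73.9 CPM in media, 111, 95.7 and 77.4 under IFNγ and 108, 96.6 and 73.1 under IFNγ + FK866, highest in number 3 and lowest in number 5 under each treatment. In number 5 against number 3 its log2 fold change was -0.49 (SE 0.06, edgeR adjusted p = 2.29e-06), while that of Bub1 was 0.25 (SE 0.07, adjusted p = 0.00466, and 0.0593 without IFNγ 5). Nusap1 had 89.4, 91.9 and 67.7 CPM in media, 99.4, 103 and 78.9 under IFNγ and 95.6, 103 and 72.5 under IFNγ + FK866, with number 5 lowest under each treatment (-0.38 against number 3, SE 0.06). Cenpe had 87.6, 90.1 and 87.5 CPM in media, 95.3, 109 and 81.4 under IFNγ and 104, 116 and 76.9 under IFNγ + FK866, highest in number 4. Its number 5 was nearly equal to number 3 in media (log2 difference -0.0019) and below it under IFNγ (-0.23) and with both agents (-0.44). The fitted value for number 5 against number 3 was -0.22 (SE 0.08, edgeR adjusted p = 0.0350), a call that was lost in 6 of 13 alternative settings. These were DESeq2 (adjusted p = 0.0531), edgeR with no treatment term (0.146), and edgeR without IFNγ 3, IFNγ 5, IFNγ + FK866 3 or IFNγ + FK866 5 (adjusted p = 0.0802, 0.146, 0.126 and 0.354).

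**Figure D4:**
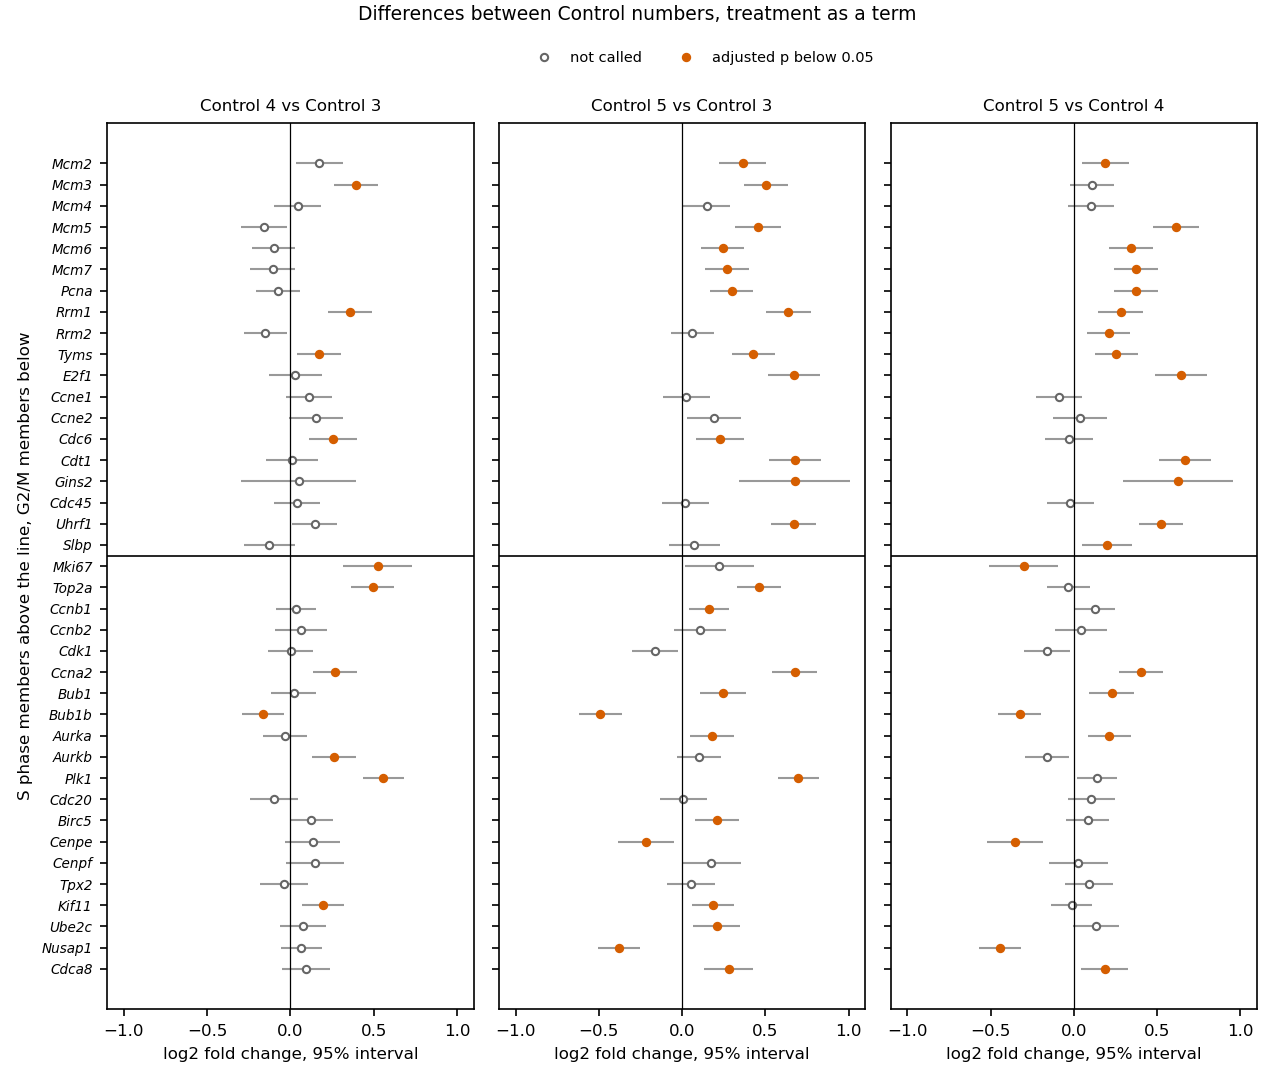
Log2 fold change of each of the 39 genes with its 95% interval (x axis) between Control numbers, with treatment as a term. Filled orange points have an adjusted p below 0.05: 11 genes for number 4 against 3, 26 for 5 against 3 and 21 for 5 against 4, with Bub1b, Cenpe and Nusap1 to the left of 0 in the last 2 panels.

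The 19 S phase genes together had 3338, 3739 and 4410 CPM in media, 3257, 3428 and 4378 under IFNγ, and 3361, 3269.8 and 4072 under IFNγ + FK866, in numbers 3, 4 and 5. Number 5 was highest under each treatment. The 20 G2/M genes had 3138, 3747 and 4022 CPM in media, 3280.5, 4042 and 4004 under IFNγ, and 3482, 4186 and 3683 under IFNγ + FK866. The ratio of the G2/M sum to the S phase sum was 0.940, 1.00 and 0.912 in media, 1.01, 1.18 and 0.915 under IFNγ, and 1.04, 1.28 and 0.904 with both agents. In number 4 the ratio was higher in both treated libraries than in media, and in number 5 it stayed near its media value. Mki67 and Top2a hold a large part of the G2/M sum. Without them the ratio was 0.595, 0.567 and 0.534 in media, 0.608, 0.633 and 0.516 under IFNγ, and 0.618, 0.677 and 0.532 with both agents.

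**Figure D5:**
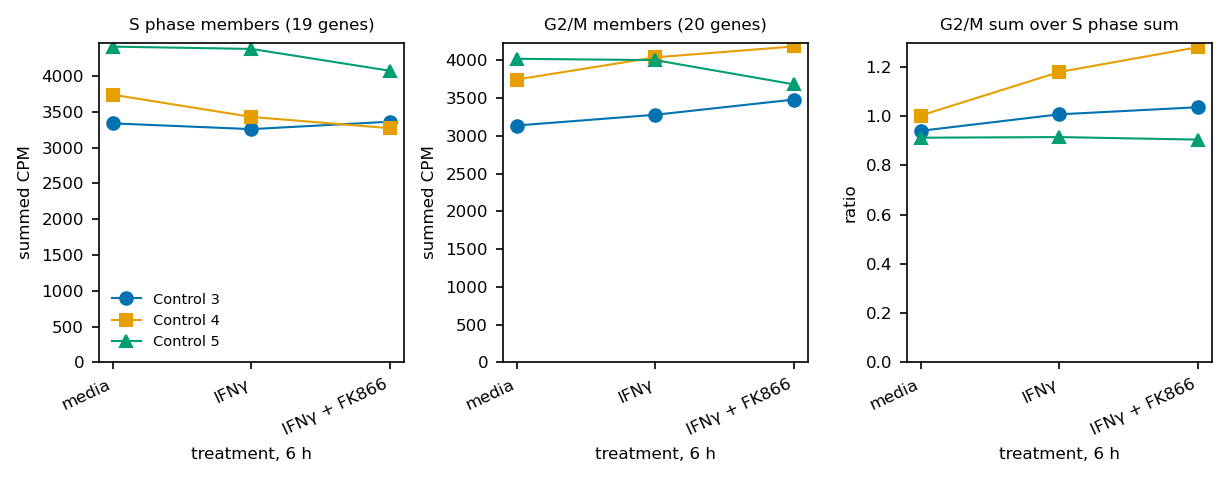
Summed CPM of the 19 S phase genes, summed CPM of the 20 G2/M genes, and the ratio of the G2/M to the S phase sum (y axes, from 0) by treatment (x axis), with 1 line per Control number. The S phase sum is highest in number 5 throughout, and the ratio goes from 1.00 to 1.28 in number 4 but stays between 0.904 and 0.915 in number 5.

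The number differences of the members were compared between treatments that share no library. Across the 39 members, the log2 difference of number 5 from number 3 in media correlated with that under IFNγ at r = 0.801 (rho = 0.791) and with that under both agents at r = 0.848 (rho = 0.771), where all 15237 genes gave r = 0.673 and 0.574. For number 5 against number 4 the members gave r = 0.712 and 0.748, where all genes gave 0.563 and 0.565. For number 4 against number 3 they gave 0.682 and 0.576, near the 0.659 and 0.612 of all genes. These correlations are across genes, which are not independent replicates, and each value rests on 1 library per number and treatment.

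Other cell cycle genes also differed between numbers. In number 5 against number 3, where 20.8% of all genes were higher and 21.1% lower, 16 of 40 other origin and fork genes were higher and 4 lower, led by the ligase Lig1 (0.83, SE 0.06) and the polymerase delta subunit Pold1 (0.79, SE 0.07). Of 53 other mitotic genes 25 were higher and 4 lower. The lower ones were Knl1 (-0.24), Hmmr (-0.29), Dlgap5 (-0.25) and Ckap2 (-0.40), which code for kinetochore and spindle proteins. Of 19 cell cycle transcription factors 11 were higher and 4 lower, with E2f8 (0.84), Myc (0.66), Foxm1 (0.61) and Mybl2 (0.48) among the higher and Rb1 (-0.37) among the lower. Of 12 CDK inhibitors and antiproliferative genes 3 were higher and 7 lower. Cdkn1a had log2 fold changes of -0.82 in number 4 and -1.51 in number 5 against number 3 (SE 0.06 and 0.06, edgeR adjusted p = 2.73e-09 and 5.01e-13), and Ccng1, like Cdkn1a a known p53 target, had -0.94 and -1.17. Ccnd1 was lowest in number 4, at -1.14 against number 3 (SE 0.06), with number 5 at -0.22 (SE 0.06).

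Among markers of other cell types, the leukocyte sum differed between numbers, while the ranges of the other sum overlapped. The summed level of 8 leukocyte markers was 6.72 to 9.10 CPM in number 3, 9.41 to 11.7 CPM in number 4 and 3.38 to 4.65 CPM in number 5. Nearly all of it was Cd68, the only 1 of the 8 with enough counts to be tested, and Ptprc, which codes for the pan-leukocyte marker CD45, had 0 counts in every library, which allows up to 3 counts or 0.156 to 0.197 CPM. The summed level of 12 fibroblast, endothelial and keratinocyte markers was 8.76 to 14.7, 12.7 to 19.2 and 8.64 to 13.6 CPM in numbers 3, 4 and 5, with 3 of 12 tested and Krt5 at 0 in every library. By group it was 13.6 to 19.2 CPM in media, 8.76 to 12.7 CPM under IFNγ and 8.64 to 13.8 CPM with both agents. Of the 3 tested, 1 was lower with IFNγ against media without the block (0.499% of all genes). This was Col1a2, at a log2 fold change of -1.69 (edgeR adjusted p = 0.00952). It had 90, 120 and 69 counts in media, 20, 29 and 33 under IFNγ and 45, 37 and 44 with both agents. The part of these genes in the differences between numbers or treatments was not tested. In bulk RNA a change in the share of cells in a phase and a change in RNA per cell cannot be told apart.

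Whether the effect of IFNγ on the members depended on the number was tested with an interaction term, both IFNγ groups pooled against media, a test added after the data were seen. It called 0 of 39 members, where 0.597% of all genes were called (91 of 15237, edgeR). Each number had 1 media library, and its IFNγ libraries differed in FK866, so the test had no true replicates. The 0 calls therefore do not show that the effect was the same in each number. Unadjusted p was below 0.05 for 4 members (10.3%), a share near the 11.3% of all genes. Mki67 had log2 differences of 0.02, 0.13 and -0.44 in numbers 3, 4 and 5 (edgeR adjusted p = 0.0766), Cenpe 0.19, 0.32 and -0.15 (0.122), Cenpf -0.05, 0.22 and -0.26 (0.184) and Tpx2 0.13, 0.13 and -0.15 (0.371).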

How the data were processed

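Unnormalised whole-number counts of reads were deposited for each Ensembl gene in 9 libraries of polyA RNA. With no values per cell they were treated as bulk RNA sequencing. The tools STAR 2.7.6a, cutadapt 1.16, featureCounts 1.6.3 and also DESeq2 1.30.1, and the builds GRCm38 and mm10, come from the submitters' processing notes, without their roles. Annotation release, strand setting and duplicate handling were not given in the sources used here. Reads of near-identical copies may have been split or dropped, as for Pcna, whose pseudogene Pcna-ps2 had 464 counts against 42714.

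The analysis used edgeR 4.0.16 in R 4.3.3 (TMM, filterByExpr, quasi-likelihood F test) in 1 fit of 9 libraries with 3 group means. Adjustment of p-values followed Benjamini and Hochberg over 15237 genes, which hold 99.89% of the counts, and an adjusted p below 0.05 was a call. Standard errors came from the F statistic. Number contrasts had treatment as a term. Variance shares are sums of squares of log2 CPM (prior count 2) by number, treatment and remainder. Pairs of libraries within a group differed beyond sampling noise (chi-square/df of 23.0 to 39.5), and none were merged. Deviations from group means correlated at 0.555 to 0.728 for the 9 pairs with the same number in their titles and at -0.477 to -0.112 for the 18 other pairs, so the number was taken as pairing the libraries, and the blocked value is printed where it changes a call.

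Alternatives were the block, DESeq2 1.42.0, its size factors in edgeR, no filter, only the libraries compared, and each library left out in turn. The interaction term and the block with each library left out were added after the data were seen. The scripts were tested on simulated data. Members and lists were chosen with earlier results of these data known. One result of the wider lists is not reported here. All members could be named, with those of other lists that were called or had the smallest p. Coordinates, exons and promoter windows are those of GRCm38 (GENCODE M21 for exons, RefSeq GRCm38.p6 for windows), and symbols were found for 55141 of 55487 genes.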

Additional observations from a re-analysis of the deposited data

How the results depend on the processing

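The count of called members changed by more than 1.5 times under the replicate block alone, which raised it from 0 to 2 for IFNγ against media and from 0 to 3 for IFNγ + FK866 against media. With the block and 1 library left out it ran from 1 to 4 and from 2 to 5, and the members beside Top2a, Cdc6 and E2f1 that were called in at least 1 of these fits were Ccne2, Cenpe and Nusap1 for IFNγ, and Ccne2, Cenpe, Cdt1 and Uhrf1 for both agents. For IFNγ + FK866 against IFNγ the count was 0 in every setting run. The median of the S phase genes for IFNγ against media ran from -0.23 to 0.05 when 1 library was left out without the block, which breaks a pair, and from -0.14 to -0.07 with it.

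Between numbers, counts stayed within 1.5 times of 11, 26 and 21 under all 13 alternatives. Calls that held in all 13 were 7 of 11 (number 4 against 3), 16 of 26 (5 against 3) and 13 of 21 (5 against 4), and none changed sign. Those lost in some were Tyms, Cdc6, Bub1b and Kif11 in the first, Mcm6, Mcm7, Cdc6, Ccnb1, Bub1, Aurka, Birc5, Cenpe, Kif11 and Ube2c in the second, and Mcm2, Rrm2, Gins2, Slbp, Mki67, Bub1, Aurka and Cdca8 in the third. Sign changes occurred only for members that were not called. The cause of these changes was not tested. The 3 libraries a group limit the precision of each treatment difference to the interval given for it.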

Other observations

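Genes of nucleotide and one-carbon metabolism outside the 39 differed between numbers, and fewer of them differed between treatments. Against media, 0 of 20 were called without the block in either comparison (3.30% and 3.36% of all genes). With the block 0 were higher, 2 were lower with IFNγ (6.14% of all genes) and 3 with both agents (7.61%). In number 5 against number 3, 9 of 20 were higher and 1 lower (edgeR adjusted p below 0.05, where 20.8% and 21.1% of all genes were). Mthfd2, a mitochondrial folate enzyme, had 94.7, 113 and 180.2 CPM in media, 84.1, 107 and 208 under IFNγ and 91.8, 100.4 and 189.6 under IFNγ + FK866 in numbers 3, 4 and 5, a log2 fold change of 1.09 (SE 0.07, edgeR adjusted p = 2.80e-10). Number 5 was the highest under each treatment. Dhodh of pyrimidine synthesis had 0.87, Dctpp1, which removes damaged deoxycytidine triphosphate, 0.84, Shmt1 and Shmt2, the serine hydroxymethyltransferases, 0.66 and 0.60, and Umps -0.30. Tk1, the S phase thymidine kinase, had 109, 125 and 123 CPM in media, 80.7, 103 and 105 under IFNγ and 79.9, 82.3 and 96.4 under IFNγ + FK866, below media in each number under both treatments. Its log2 fold change with both agents was -0.47 (edgeR adjusted p = 0.110; 2.37e-05 with the block).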
